A study of Homo sapiens with 12 samples.

Results

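In vehicle-treated U-937 cells, 748 runs of closely spaced H3K4me2 peaks lay away from gene starts. They were found by taking every DMSO peak more than 2500 bp from any annotated protein-coding or lncRNA start site on GRCh38, chaining peaks whose gaps were at most 5 kb, and keeping chains of 5 or more, which are called clusters here. The clusters held 4525 of the 41328 distal peaks, and of the 65172 peaks in the DMSO list as a whole. The clusters were chosen by the positions of the vehicle peaks alone, so the values of that list are given as a description with no test, while the lists of the drug-treated cells had no part in the choice.

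U-937 is an established human myeloid leukaemia line with monocytic features. Cells received DMSO (the vehicle), ATRA, Corin, or ATRA and Corin together, each drug at 0.1 µM, for 24 hours. Each treatment has 2 H3K4me2 libraries and 1 input library, and its deposited peaks form 1 list made from all of them. With 1 list per treatment there is no spread between replicates, so no difference between treatments below could be tested, and intervals on shares (Wilson, 95%) cover counting error only. The 3 drug lists are all read against the same DMSO list.

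Dimethylation of lysine 4 on histone H3 (H3K4me2) is found at promoters and at active or poised enhancers, the distal DNA elements through which transcription factors raise the transcription of a gene. Enhancers often occur in runs near genes that define a cell's identity, and the mark sits on nucleosomes, which flank the stretches of open DNA that factors bind. ATRA is the natural ligand of the retinoic acid receptors and drives maturation of some leukaemia cells. Corin is a small molecule that inhibits both enzyme activities of the CoREST complex, the histone demethylase LSD1 (KDM1A), which takes methyl groups off H3K4, and the histone deacetylases HDAC1 and HDAC2.

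The sequences below come from the largest clusters and are shown because many neighbouring peaks were parted by gaps shorter than 300 bp that differed in sequence from the peaks themselves. Each is 200 bases of the GRCh38 plus strand, 5′ to 3′. The first 4 are centred on such a short gap, and were chosen after seeing the sequences, as short gaps that matched more than 1 kind of motif. The last 3 are centred on the strongest summit of a cluster. Capitals mark a match, on either strand, to a searched motif.

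gap near SRGN, chr10:69045623-69045822: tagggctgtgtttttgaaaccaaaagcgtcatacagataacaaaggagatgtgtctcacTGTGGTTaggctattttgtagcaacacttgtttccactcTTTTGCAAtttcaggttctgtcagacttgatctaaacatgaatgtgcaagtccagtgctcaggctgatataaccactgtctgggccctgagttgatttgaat
gap near RAB31, chr18:9755789-9755988: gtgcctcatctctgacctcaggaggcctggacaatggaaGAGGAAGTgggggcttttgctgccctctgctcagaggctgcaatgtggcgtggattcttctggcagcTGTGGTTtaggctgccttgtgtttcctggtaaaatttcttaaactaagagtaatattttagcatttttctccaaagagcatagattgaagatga
gap near CEBPA, chr19:33263489-33263688: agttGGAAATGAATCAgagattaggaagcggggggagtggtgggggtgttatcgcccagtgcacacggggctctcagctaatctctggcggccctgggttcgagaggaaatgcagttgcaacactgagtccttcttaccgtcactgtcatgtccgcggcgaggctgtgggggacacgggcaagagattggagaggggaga
gap near PREX1, chr20:48872786-48872985: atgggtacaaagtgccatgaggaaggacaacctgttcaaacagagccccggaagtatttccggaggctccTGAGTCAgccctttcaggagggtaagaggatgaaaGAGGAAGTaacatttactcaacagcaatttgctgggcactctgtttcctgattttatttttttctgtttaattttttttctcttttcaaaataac
summit near SRGN, chr10:69061923-69062122: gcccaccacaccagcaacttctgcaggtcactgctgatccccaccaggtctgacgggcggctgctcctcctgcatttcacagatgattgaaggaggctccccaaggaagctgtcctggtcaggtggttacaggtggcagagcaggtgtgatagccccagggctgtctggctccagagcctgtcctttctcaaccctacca
summit near RAB31, chr18:9771477-9771676: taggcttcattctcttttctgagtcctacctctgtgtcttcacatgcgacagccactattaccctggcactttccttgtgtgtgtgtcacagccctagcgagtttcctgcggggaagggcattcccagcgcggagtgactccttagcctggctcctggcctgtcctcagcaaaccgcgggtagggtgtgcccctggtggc
summit near SLC2A1, chr1:42932065-42932264: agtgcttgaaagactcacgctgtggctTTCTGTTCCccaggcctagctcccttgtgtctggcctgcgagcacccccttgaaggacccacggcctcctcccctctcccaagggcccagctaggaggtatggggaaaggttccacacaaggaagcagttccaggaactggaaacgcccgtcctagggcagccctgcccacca

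The gap near SRGN held a RUNX and a C/EBP match, and the gap near RAB31 held a PU.1 and a RUNX match. The gap near CEBPA held an ETS-IRF match that overlapped an AP-1 match, and the gap near PREX1 held an AP-1 and a PU.1 match. The strongest summits of the SRGN and RAB31 clusters held no match, and the SLC2A1 summit held an ETS-IRF match.

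Most clusters were small. Of the 748, 376 had exactly 5 peaks, 30 had 10 or more, and the largest had 17, while 840 chains of 4 peaks lay just outside the rule. The span from the first to the last peak ranged from 2621 bp to 42143 bp with a median of 10498.5 bp, and 42 clusters spanned more than 20 kb. Peaks covered between 15.6% and 93.4% of a span, with a median of 48.0%. In length, the clusters took 12.2% of all distal peak sequence, or 3.97 Mb within 8.39 Mb of span.

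**Figure D1:**
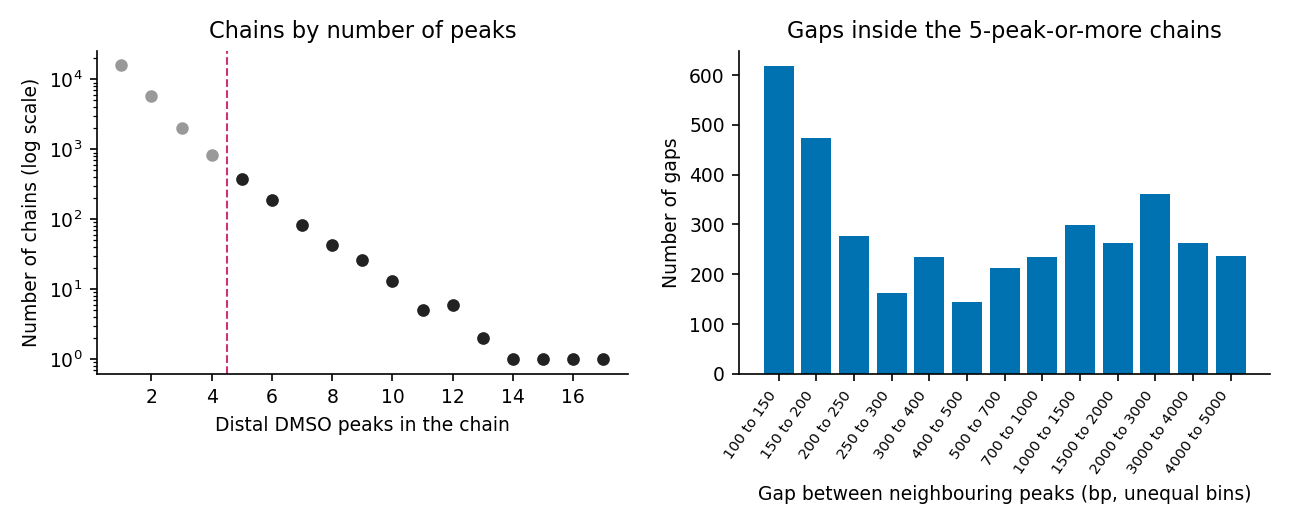
Left, number of chains (log scale) against the number of distal DMSO peaks in the chain, with the clusters, at 5 peaks or more, in black right of the dashed line. Right, number of gaps between neighbouring peaks of a cluster by gap length in bp, in unequal bins; 618 of the 3777 gaps were 100 to 150 bp long.

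The plot of chains by size falls smoothly through the limit of 5 peaks, from 840 chains of 4 to 376 of 5 and 189 of 6. Gaps inside the clusters ranged from 102 to 4998 bp with a median of 481 bp and quartiles of 179 and 1815 bp. Gaps under 300 bp made up 40.5% of them, and gaps under 500 bp made up 50.5%. The number of clusters depended on these short gaps: merging peaks within 500 bp of each other before chaining, an alternative added after the data were seen, left 143 clusters.

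Cluster peaks were about as strong as other distal peaks. Their median width was 593 bp, against 535 bp in chains of 2 to 4 and 576 bp for single peaks. The median fold enrichment over input deposited by the authors was 5.45 in clusters and 5.41 over all distal peaks. The number of H3K4me2 fragments over the summit, recovered from the deposited fold and p, had a median of 32 in clusters and 31 over all distal peaks. Among cluster peaks, 67.8% had a −log10 q of 5 or higher, as did 67.0% of all distal peaks, and keeping only such peaks left 257 clusters.

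The cluster with the most peaks, 17, lay on chr10:69038690-69080832, with its middle 28342 bp from the start of SRGN, which encodes the granule proteoglycan serglycin of blood cells. The cluster of 16 peaks lay inside RAB31, a small GTPase of vesicle traffic, on chr18:9749731-9782899. The CD69 start, which belongs to an early activation receptor of leukocytes, was nearest to both a cluster of 15 peaks on chr12:9763592-9788472 and one of 12 peaks on chr12:9725273-9743714. Inside COL23A1, a membrane collagen gene, 14 peaks covered 24103 bp on chr5:178477239-178506662, the largest covered length of any cluster.

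Clusters of 13 peaks lay near PREX1, a Rac exchange factor of neutrophils, and inside XYLT1, which starts glycosaminoglycan chains. Of 6 clusters of 12 peaks, the 4 with the largest covered length complete the 10 described here: the smaller CD69 cluster and clusters inside SLA, which encodes a Src-like adaptor, inside SLC2A1, the glucose transporter GLUT1, and inside PPP3R1, the regulatory subunit of calcineurin. By covered length, the next clusters after COL23A1 were those near CEBPA, the transcription factor of granulocyte and monocyte development, and CD93, a surface glycoprotein of monocytes. The CEBPA cluster held 10 peaks on chr19:33248471-33282933, with its middle 36832 bp from the CEBPA start. Its strongest summit had 300 fragments in the DMSO list, against 117 at the strongest SRGN summit.

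**Figure D2:**
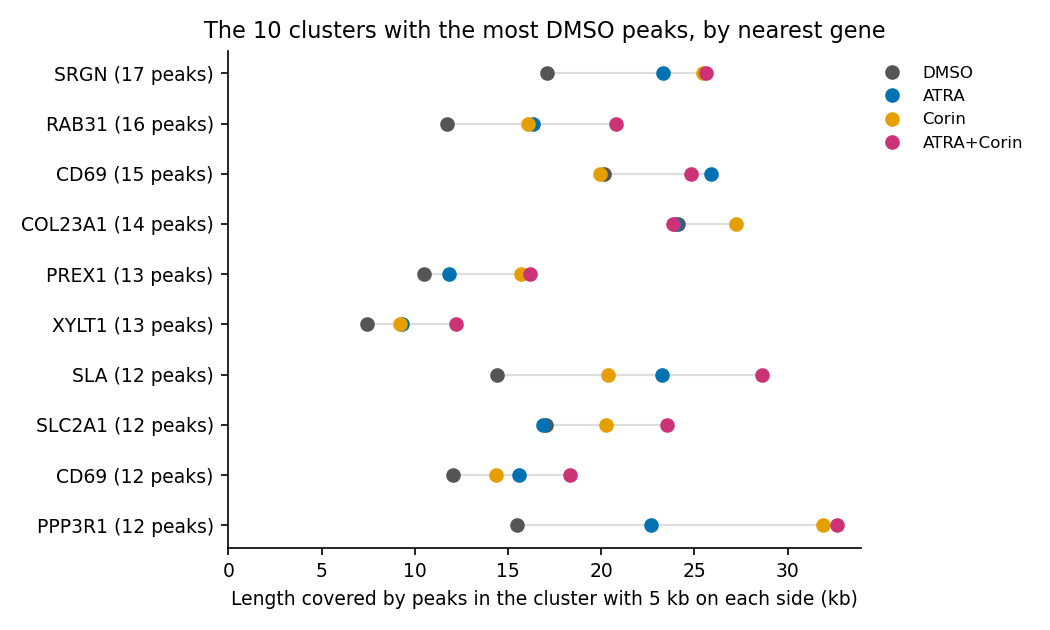
Length in kb covered by peaks of each list within a cluster and 5 kb on each side, for the 10 clusters with the most DMSO peaks (ties at 12 peaks taken by covered length), named by nearest gene; each point is 1 treatment's pooled list. PPP3R1 goes from 15.5 kb with DMSO to 32.7 kb with both drugs, while COL23A1 stays between 23.9 and 27.3 kb.

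In these 10 clusters, the drug lists mostly covered more than the vehicle list. Within the SRGN span and 5 kb on each side (the window used for covered lengths throughout), DMSO peaks covered 17106 bp, ATRA peaks 23338 bp, Corin peaks 25442 bp and the peaks of both drugs 25632 bp. The RAB31 window had 11725 bp with DMSO, 16349 bp with ATRA, 16088 bp with Corin and 20803 bp with both. The larger CD69 cluster had 20139 bp with DMSO, 25888 bp with ATRA, 19963 bp with Corin and 24832 bp with both. Of the 20139 bp, cluster peaks held 16887 bp. So SRGN and RAB31 were longer in each drug list, whereas the larger CD69 cluster was longer only where ATRA was given.

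COL23A1 had 24103 bp with DMSO, 23949 bp with ATRA, 27256 bp with Corin and 23866 bp with both, a range of at most 1.13 times the DMSO length. The CEBPA window had 22913 bp with DMSO, 24311 bp with ATRA, 28258 bp with Corin and 30169 bp with both. The PPP3R1 window had 15506 bp with DMSO, 22658 bp with ATRA, 31917 bp with Corin and 32666 bp with both. Of these 3, PPP3R1 had the largest ratios to DMSO, at 1.46, 2.06 and 2.11. The other two clusters of 12 peaks fell outside the rule for named clusters and were added after their values were seen. The one inside IRAK2, a kinase of interleukin-1 receptor signalling, was shorter with ATRA, with 9117 bp for DMSO, 7665 bp for ATRA, 11836 bp for Corin and 11663 bp for both. The one nearest to CAT, the catalase gene, had 8229 bp with DMSO, 10894 bp with ATRA, 9416 bp with Corin and 11379 bp with both.

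**Figure D3:**
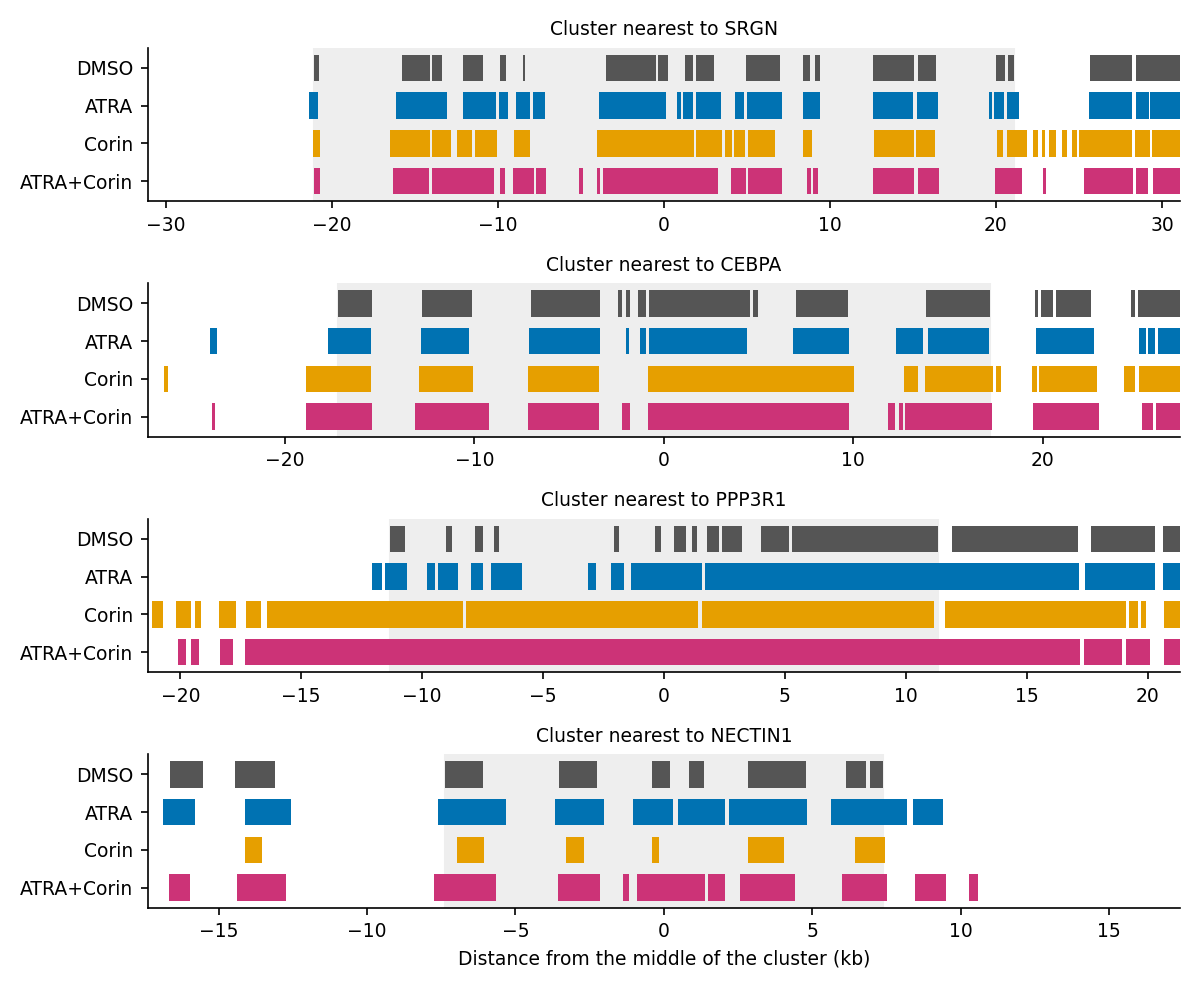
Peaks of the 4 lists (bars) along 4 clusters, by distance in kb from the middle of the cluster, with the span of the DMSO cluster shaded grey. At PPP3R1 the 12 DMSO peaks of the span are met by 9 ATRA peaks, 3 Corin peaks and 1 peak of both drugs, and at NECTIN1 the Corin peaks are narrower than those of the other lists.

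As the maps of the clusters show, the peaks within a span became fewer and wider in the drug lists. The spans held 4525 DMSO peaks, 3390 ATRA peaks, 3513 Corin peaks and 3356 peaks of both drugs. Fewer peaks than with DMSO were found in 574, 546 and 571 clusters in that order, and more in 61, 93 and 86. The shares with fewer were 76.7%, 72.99% and 76.3% of clusters, against 55.2%, 54.5% and 59.1% of chains of 2 to 4. More peaks were found in 567, 779 and 757 of those 8655 chains. Fewer peaks in the drug lists were thus not particular to clusters. The median share of a span under peaks was 48.0% with DMSO, 52.4% with ATRA, 55.5% with Corin and 61.8% with both. A lone peak of the span, over at least 80% of it, was found in 3 clusters with ATRA, 8 with Corin and 18 with both, PPP3R1 among the last. These were 0.401%, 1.07% and 2.41% of clusters, against 21.9%, 24.2% and 31.9% of chains of 2 to 4.

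The choice of list sets the direction of the peak count. Clusters built by the same rule on the ATRA list held 4183 of its peaks and 3556 DMSO peaks, those built on the Corin list 5977 and 4355, and those built on the list of both drugs 8513 and 5234. So drug lists had fewer peaks than DMSO in clusters built on DMSO, and more peaks than DMSO in clusters built on the drug lists. The covered length did not turn with the choice, since DMSO covered 0.792, 0.686 and 0.559 times the length that ATRA, Corin and both drugs covered in their own clusters.

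Most of the cluster peaks were met by a peak of each drug list. At least 1 bp of an ATRA peak lay on 89.0% of them (interval 88.0% to 89.8%), of a Corin peak on 90.5% (89.6% to 91.3%), and of a peak of both drugs on 93.1% (92.3% to 93.8%). Over all distal peaks the same shares were 87.3%, 87.6% and 91.6%. Single distal peaks were met at 85.3%, 85.1% and 90.3%, and peaks in chains of 2 to 4 at 88.5%, 88.9% and 92.2%. The shares for clusters were thus above those for all distal peaks by 1 to 3 percentage points, and with the same number of strongest intervals taken from every list they were 88.2%, 86.6% and 88.1%.

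In the cluster windows together, peaks covered 4.44 Mb with DMSO, 5.10 Mb with ATRA, 5.69 Mb with Corin and 6.38 Mb with both drugs. The ratios to DMSO were 1.15, 1.28 and 1.43. Chains of 2 to 4 had 1.14, 1.28 and 1.43, single peaks 1.14, 1.29 and 1.48, and the lists over the whole genome 1.14, 1.29 and 1.48. In covered length, with flanks included, the clusters therefore moved by about the same factor as the rest of each list. The recovered depth of the lists also differed: the genome-wide mean of H3K4me2 fragments over a position was 1.02, 1.10 and 1.20 times that of DMSO in the ATRA, Corin and combined lists, and its part in the longer coverage was not tested.

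Bases under vehicle peaks are all covered in the DMSO list, so added length could lie only between or beside those peaks. Of the bases under DMSO peaks of the clusters, 88.9%, 89.4% and 92.2% were under peaks with ATRA, Corin and both. Of the bases in gaps, ATRA peaks covered 18.1%, Corin peaks 25.1% and peaks of both drugs 32.6%, against 16.7%, 22.2% and 28.0% in chains of 2 to 4. In the flanks of 5 kb, coverage was 6.34% with DMSO and 10.3%, 13.8% and 17.1% with the drugs. Gaps under 300 bp were covered end to end in 60.0%, 61.5% and 72.7% of 1530 cases, gaps of 300 bp to under 500 bp in 26.9%, 35.4% and 46.4% of 379, and gaps of 500 bp or more in 3.48%, 8.35% and 12.6% of 1868. In bulk cells, more marked cells and more mark per cell cannot be told apart.

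Read cluster by cluster, a window was counted as longer where a drug list covered at least 1.5 times the DMSO length, and as shorter where it covered at most the DMSO length divided by 1.5. ATRA gave 85 longer clusters (11.4%), Corin 169 (22.6%) and both drugs 297 (39.7%), and the background over all distal chains was 21.7%, 31.4% and 43.6%. Shorter clusters numbered 14, 11 and 8 (1.87%, 1.47% and 1.07%), against 12.1%, 12.0% and 7.75% of all distal chains. Each share of the clusters was below its background. A cluster window holds more peaks than that of a single peak, and the part of this in the narrower range of ratios was not tested.

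**Figure D4:**
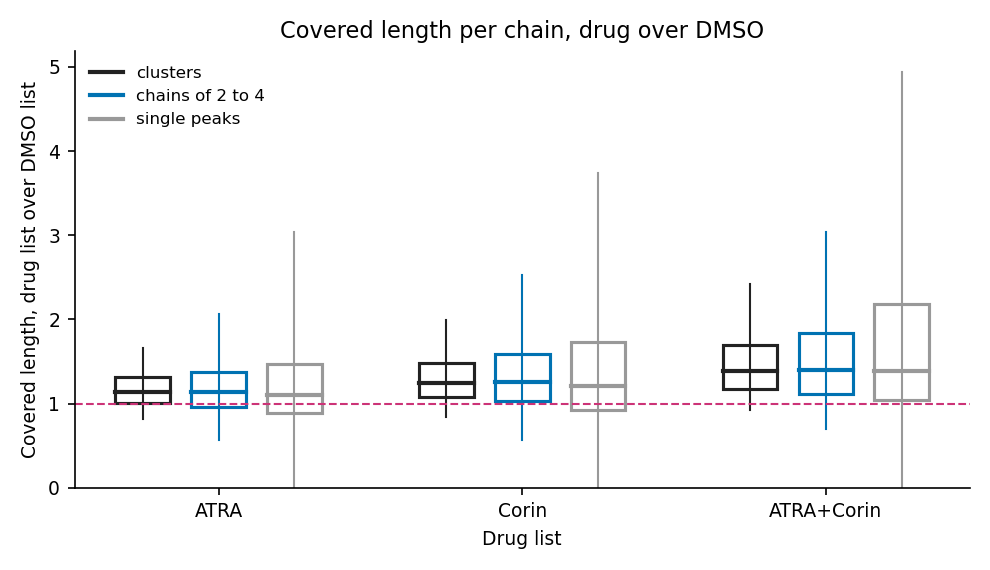
Ratio of the covered length in a drug list to that in the DMSO list, per chain, for clusters (black), chains of 2 to 4 (blue) and single peaks (grey); thick lines are medians, boxes the quartiles, thin lines the 5th to 95th percentiles, and the dashed line equal length. Medians of the classes are close together, at 1.14, 1.14 and 1.10 with ATRA, while the clusters have the narrowest range.

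The median ratio of a cluster was 1.14 with ATRA, 1.247 with Corin and 1.38 with both, and the plot of ratios shows similar medians for the other chains. Lengths above DMSO were found in 572 clusters with ATRA, 633 with Corin and 688 with both. The list of both drugs covered more than either drug alone in 509 clusters (68.0%, against 54.7% of all distal chains), and Corin covered more than ATRA in 494 (66.0%, against 59.6%). By the factor of 1.5, 47 clusters were longer in each of the 3 drug lists, 106 with Corin and with both but not ATRA, 28 with ATRA and with both but not Corin, 116 with both drugs alone, and 426 in none. For these joint counts, and for lengths above DMSO, shares over all distal chains were not computed, so they do not set clusters apart.

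The 5 largest gains in length with ATRA were near SLA, PPP3R1, NECTIN1, SRGN and CD69. SLA, on chr8:133067210-133094155, had 14430 bp with DMSO, 23275 bp with ATRA, 20382 bp with Corin and 28618 bp with both drugs. It lies within the thyroglobulin gene TG as well. The 5 largest gains with Corin were at PPP3R1, MSN, METTL9, GLO1 and LYST, with all 5 clusters inside the gene named. The METTL9, GLO1 and LYST windows take in the start of the gene, so peaks at starts count in these lengths. With DMSO these windows had 8770, 8265 and 9316 bp, of which the cluster peaks held 5501, 4016 and 4703 bp. The PPP3R1 window also held peaks close to a start site, and cluster peaks made up 11106 of its 15506 bp with DMSO. MSN encodes moesin, which ties the membrane to actin, and its cluster on chrX:65686018-65699776 had 9759 bp with DMSO, 11137 bp with ATRA, 22148 bp with Corin and 23045 bp with both.

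METTL9 is a histidine methyltransferase gene, and its cluster had 8770 bp with DMSO, 7410 bp with ATRA, 20808 bp with Corin and 17120 bp with both. LYST, a gene of lysosome traffic, had 9316 bp with DMSO, 9960 bp with ATRA, 19380 bp with Corin and 17903 bp with both. The MSN, METTL9 and LYST clusters were thus 0.845 to 1.14 times the DMSO length with ATRA, and more than 1.5 times that length with Corin alone and with both drugs. The LYST span held 6 peaks with DMSO and 1 with Corin, 16940 bp wide.

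With both drugs the 5 largest gains were at PPP3R1, SLA, SMAD3, MSN and ARHGAP12. SMAD3, a transcription factor of TGF-β signalling, had 16309 bp with DMSO, 21485 bp with ATRA, 23866 bp with Corin and 29714 bp with both. Cluster peaks held 13808 of the 16309 bp. The cluster nearest to ARHGAP12, a GTPase-activating protein gene, had 5854 bp with DMSO, 10010 bp with ATRA, 11419 bp with Corin and 18632 bp with both, a ratio of 3.18. In both, the combined list was longer than either drug's. The highest ratio of any cluster with both drugs, 5.08, was inside JARID2, a Polycomb partner gene, at 2893 bp with DMSO, 7077 bp with ATRA, 12489 bp with Corin and 14694 bp with both; it was named after its values were seen.

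Losses of length were smaller. The cluster inside INPP5A, an inositol phosphatase gene, on chr10:132544095-132562706 had 10376 bp with DMSO, 6400 bp with ATRA, 10191 bp with Corin and 5700 bp with both. It was shorter by that factor only where ATRA was given. Its strongest summit had 129 fragments with DMSO, 167 with ATRA, 114 with Corin and 218 with both, counts not adjusted for the depth of the lists. The fold over input of these summits was 26.6, 16.6, 24.5 and 38.2 in the same order. With ATRA the fold was thus lower than with DMSO though the fragments were more. A cluster on chr1:36707804-36718306, with its middle 230142 bp from its nearest start, that of the granulocyte growth factor receptor CSF3R, had 6621 bp with DMSO, 2815 bp with ATRA, 7523 bp with Corin and 7229 bp with both. KCNN2, a potassium channel gene, had 10777 bp with DMSO, 7821 bp with ATRA, 12072 bp with Corin and 11393 bp with both.

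The cluster nearest to MRPL46, a gene of the mitochondrial ribosome, was shorter in each drug list, at 5312 bp with DMSO, 2493 bp with ATRA, 2087 bp with Corin and 2989 bp with both. GLIS1, a zinc-finger factor gene, had 5326 bp with DMSO, 3281 bp with ATRA, 3293 bp with Corin and 2678 bp with both. In the GLIS1 cluster the strongest summit was not lower, with 109 fragments with DMSO, 195 with ATRA, 152 with Corin and 265 with both. The fold over input of these GLIS1 summits was 17.8, 28.8, 20.3 and 38.6. Shorter coverage thus did not always go with fewer fragments at the highest point.

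The other large losses with Corin were at NECTIN1, inside MAD1L1, near SLC22A3 and inside CPNE2. The MAD1L1 cluster, in a spindle checkpoint gene though its nearest start is that of ELFN1, had 11789 bp with DMSO, 10781 bp with ATRA, 9218 bp with Corin and 9742 bp with both. The SLC22A3 cluster, near an organic cation transporter gene, had 3941 bp with DMSO, 3532 bp with ATRA, 1764 bp with Corin and 2924 bp with both. The cluster 150695 bp from PRAG1 was the only one with 0 peaks in its span in a drug list, that of both drugs. Its window had 4373 bp with DMSO, 2311 bp with ATRA, 3211 bp with Corin and 1762 bp with both. Of the 4373 bp, cluster peaks held 2436 bp.

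At NECTIN1 and GLO1 the drugs lay on opposite sides of the vehicle. NECTIN1, an adhesion molecule gene, had 6723 bp with DMSO, 13061 bp with ATRA, 3971 bp with Corin and 11289 bp with both, on chr11:119680346-119695090. GLO1, which detoxifies methylglyoxal, had 8265 bp with DMSO, 5313 bp with ATRA, 19246 bp with Corin and 11390 bp with both, on chr6:38688456-38699855. The GLO1 window takes in the start of that gene, so its lengths are not of distal peaks alone. The strongest summits lay on the same side of DMSO as the lengths, with 92 fragments at NECTIN1 with DMSO, 122 with ATRA, 46 with Corin and 106 with both, and with 80, 38, 94 and 252 at GLO1. At GLO1 the summit was highest with both drugs, whereas the length was largest with Corin.

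Applied to each list on its own, the rule gave 748 clusters with DMSO, 702 with ATRA, 941 with Corin and 1299 with both drugs. These counts move with the length of the lists, which hold 65172, 66385, 73997 and 83969 peaks. With the same number of strongest intervals from every list the order turned, to 748, 649, 595 and 501. Of the DMSO clusters, 379 (50.7%) overlapped an ATRA cluster, 406 (54.3%) a Corin cluster and 407 (54.4%) a cluster of both. In turn, 377 of 702 ATRA clusters (53.7%), 403 of 941 Corin clusters (42.8%) and 400 of 1299 clusters of both drugs (30.8%) overlapped a DMSO cluster. Clusters of every drug list were met by 219 DMSO clusters and of none by 181.

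Clusters lay at about the same distance from genes as other distal peaks. The nearest protein-coding start was a median of 37356.5 bp from the middle of a cluster, with quartiles of 16811 and 81926 bp, against 36703.5 bp for single peaks. The middle lay inside a protein-coding gene for 58.3% of clusters, 54.4% of chains of 2 to 4 and 51.8% of single peaks, and 8.35% of cluster peaks touched an exon. The 675 genes nearest to a cluster had a DMSO peak over their start in 66.4% of cases, against 58.7% of genes nearest to chains of 2 to 4, 53.3% of genes nearest to single peaks and 47.3% of all protein-coding genes. With Corin this share was 53.8% and with both drugs 54.8%, while over all protein-coding genes it was 38.0% in each, so the clusters' genes and all genes differed between lists alike.

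Most of the nearest genes had a single cluster, and some recurred. Of the 675 nearest genes, 607 had 1 cluster, 63 had 2 and 5 had 3. The 8655 chains of 2 to 4 had 5325 nearest genes, so sharing a nearest gene was not particular to clusters. The 5 genes with 3 clusters were CXCR4, the chemokine receptor that holds blood cells in the marrow, ELFN1, FAM53B, MSN, and SIRPA, the myeloid receptor for CD47. The 3 CXCR4 clusters lay 93438 to 132983 bp from its start. Their lengths were 6182, 3424 and 3651 bp with DMSO, 7825, 5268 and 3758 bp with ATRA, 8129, 3519 and 3442 bp with Corin, and 10186, 3549 and 4055 bp with both. Only the CXCR4 cluster nearest to the start was at least 1.5 times as long with both drugs, and the middle one was so with ATRA. The windows of the middle and the farthest CXCR4 cluster overlap and share bases.

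All 3 MSN clusters were longer with Corin and with both drugs by that factor, with ratios of 1.56, 1.70 and 2.27 for Corin and 1.72, 1.78 and 2.36 for both, and of 1.02, 1.01 and 1.14 for ATRA. The second of these windows takes in the MSN start, 7985 bp from the middle of its cluster. It also overlaps the third window, so the bases they share count in both. The 3 SIRPA clusters, on chromosome 20, differed from each other, though the windows of neighbouring SIRPA clusters overlap and share bases. Their lengths were 2831, 6459 and 5975 bp with DMSO, 6750, 6156 and 6544 bp with ATRA, 4597, 7790 and 7564 bp with Corin, and 7971, 8724 and 11674 bp with both. The ATRA ratios were thus 2.38, 0.953 and 1.10. Near-identical relatives of SIRPA lie beside it, so reads there may be shared between copies. The 3 clusters inside FAM53B stayed within 0.862 to 1.38 times the DMSO length in every drug list.

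A cluster lay within 100 kb of the start of 1569 of 19962 protein-coding genes (7.86%), the background for the lists below. The genes of the lists were chosen with earlier results of these data known. Of protein-coding genes with any distal peak within 100 kb of the start, 9.74% had a cluster. Among 44 myeloid transcription factors, 11 had one (25.0%, interval 14.6% to 39.4%), CEBPA, CEBPB, RUNX3, IRF1, IRF4 and ELF1 among them. RUNX3, a Runt-family factor, had 13453 bp with DMSO, 17376 bp with ATRA, 17602 bp with Corin and 23549 bp with both. ELF1, an ETS factor, had 3194 bp with DMSO, 4495 bp with ATRA, 10490 bp with Corin and 9320 bp with both, and FLI1, another ETS factor, had 7927 bp with DMSO, 11428 bp with ATRA, 12301 bp with Corin and 15303 bp with both. Each of the 3 was longer in every drug list, and ELF1 was longest with Corin.

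The start of CEBPB, a factor of monocyte activation, was nearest to 2 clusters. Its listed cluster had 5812 bp with DMSO, 5675 bp with ATRA, 7038 bp with Corin and 9417 bp with both. IRF4, an interferon regulatory factor, had 5753 bp with DMSO, 6070 bp with ATRA, 6016 bp with Corin and 6826 bp with both, and IKZF1, the lymphoid and myeloid factor Ikaros, had 9428 bp with DMSO, 10573 bp with ATRA, 10183 bp with Corin and 11730 bp with both. IRF4 and IKZF1 were at most 1.24 times their DMSO length in any list. The cluster near BATF, an AP-1 partner, was closest to FLVCR2 and had 2195 bp with DMSO, 759 bp with ATRA, 3336 bp with Corin and 2906 bp with both.

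Among 45 monocyte surface and effector genes, 12 had a cluster (26.7%, interval 16.0% to 41.0%), with CD14, CD44, CD86, CSF2RA, FCGR2A and FCGR3A the first of them. CD14, the lipopolysaccharide co-receptor of monocytes, had 2035 bp with DMSO, 2409 bp with ATRA, 5137 bp with Corin and 5204 bp with both. CD44, the hyaluronan receptor, had 2667 bp with DMSO, 4327 bp with ATRA, 3607 bp with Corin and 4697 bp with both. CD14 and CD44 were longer in each drug list, CD14 by more than 1.5 times with Corin and CD44 with ATRA. FCGR2A and FCGR3A shared 1 cluster in a region of near-identical copies, where reads may be misplaced.

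Of 32 signalling and adaptor genes of blood cells, 5 had a cluster (15.6%, interval 6.86% to 31.8%): PTPRC, PRKCB, LCP1, LCP2 and NFKBIA. The interval takes in the background of 7.86%. The start of PRKCB, a protein kinase C, was nearest to 2 clusters. Its listed cluster had 8717 bp with DMSO, 11220 bp with ATRA, 11652 bp with Corin and 17842 bp with both. LCP1, the actin bundler of leukocytes, had 13465 bp with DMSO, 16131 bp with ATRA, 20136 bp with Corin and 20143 bp with both. Of the 13465 bp, cluster peaks held 8625 bp. NFKBIA, the NF-κB inhibitor, had 8023 bp with DMSO, 7447 bp with ATRA, 7710 bp with Corin and 9063 bp with both. The PRKCB and LCP1 clusters were longer in each drug list and the NFKBIA cluster only with both drugs. The start nearest to the NFKBIA cluster was that of PSMA6.

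Of 18 retinoid genes found in the annotation, 3 had a cluster (16.7%, interval 5.84% to 39.2%), RXRA, CRABP1 and CRABP2. RXRA, the partner of the retinoic acid receptors, had 7544 bp with DMSO, 5865 bp with ATRA, 6850 bp with Corin and 8398 bp with both in a cluster inside the gene. The cluster near CRABP1, a retinoic acid binding protein, had 3300 bp with DMSO, 4002 bp with ATRA, 6870 bp with Corin and 6005 bp with both, and the cluster near CRABP2 had 3890 bp with DMSO, 3346 bp with ATRA, 2542 bp with Corin and 3970 bp with both. The starts nearest to these CRABP1 and CRABP2 clusters were those of IREB2 and SH2D2A. None of these retinoid genes had a window 1.5 times as long with ATRA as with DMSO.

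Among 10 genes of CoREST and p300, only RCOR2, a CoREST subunit, had a cluster within 100 kb (10.0%, interval 1.79% to 40.4%). The RCOR2 cluster, inside MARK2, had 8002 bp with DMSO, 10696 bp with ATRA, 11178 bp with Corin and 14017 bp with both. Of 28 genes of other lineages, EBF1 alone had a cluster (3.57%, interval 0.633% to 17.7%), with 3407 bp with DMSO and 3322, 3791 and 3894 bp with the drugs. As a check of the line, 7 of 10 monocytic and myeloid markers had a DMSO peak over the start, and 9 of 10 had one within 1 kb, the exception being MPO. Of 10 markers not expected in this line, 3 had a peak over the start.

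The share of distal peaks in clusters differed between chromosomes. It was highest on chromosome 20, at 16.4% (interval 14.7% to 18.3%), followed by 13.9% on chromosome 5, 13.8% on chromosome 10 and 13.3% on chromosome 15, and lowest on chromosome 6, at 7.63% (6.64% to 8.76%). The median background under distal peaks, in units of the genome-wide mean, was highest on chromosomes 20 and 15 too, at 1.87 and 1.80, against 1.12 on chromosomes 5 and 10 and 1.44 on chromosome 6. The part of this background in the count of clusters was not tested. Without chromosome 20, 708 clusters remained, and the covered length ratios were 1.15, 1.28 and 1.43.

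The middles of short gaps held more motif matches than the peak summits around them. Windows of 300 bp were searched on both strands. The motif of PU.1 was GAGGAAGT and that of C/EBP factors TTGCNNAA. For RUNX factors the letters searched were TGTGGTT, and for AP-1 they were TGANTCA. The ETS-IRF motif was GGAANNGAA, and the motif of GATA factors was AGATAAG. Retinoic acid receptors read AGGTCA repeated head to tail, here after 5 or 2 bases. A PU.1 or ETS-IRF match may share its GGAA with the other, and an ETS-IRF match its end with AP-1. PU.1 and C/EBP factors direct the myeloid lineage, and RUNX and AP-1 factors work beside them.

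PU.1 matches were found in 5.23% of 1530 windows at the middle of gaps under 300 bp, in 2.94% of 4525 summit windows, in 0.803% of 1868 windows at the middle of gaps of 500 bp or more, and in 1.49% of 29109 windows set every 100 kb along the genome. C/EBP matches were found in 22.8%, 13.9%, 13.0% and 15.6% of these sets in the same order. RUNX matches were found in 10.1%, 5.72%, 5.09% and 5.67%, and AP-1 matches in 12.48%, 9.77%, 9.37% and 9.13%. For all 4 motifs the short gaps had the highest share of the 4 sets. The 379 windows at the middle of gaps of 300 bp to under 500 bp lay close to the short gaps for C/EBP (21.6%), RUNX (10.0%) and AP-1 (12.1%), and lower for PU.1 (3.17%). The windows at gaps under 300 bp, longer than those gaps, reach into the peaks on each side.

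ETS-IRF matches were at 10.6%, 8.11%, 6.80% and 8.37%, and GATA matches were at 5.49%, 3.05%, 4.07% and 4.46%. The median GC content was 43.0% at short gaps, 50.3% at summits, 45.3% at longer gaps and 40.0% along the genome, so base composition differed between the sets and its part was not tested. The same windows in chains of 2 to 4 peaks gave 7.51% for PU.1, 26.8% for C/EBP and 13.2% for RUNX, each above the share in the clusters. Any of the motifs was found in 49.7% of short gaps of clusters and 57.6% of those in chains of 2 to 4.

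**Figure D5:**
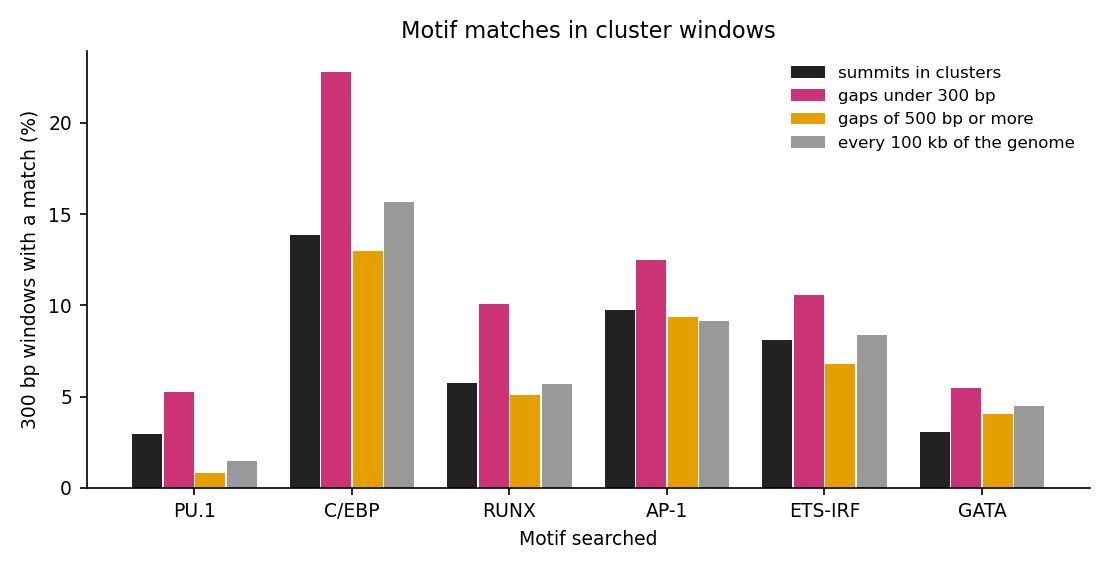
Share of 300 bp windows with at least 1 match to each motif, for summits of cluster peaks, middles of gaps under 300 bp, middles of gaps of 500 bp or more, and windows every 100 kb of the genome. The short gaps have the tallest bar for each of the 6 motifs, 22.8% against 13.9% at summits for C/EBP.

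Retinoic acid receptor repeats were rare, with 0 summit windows of the clusters holding the form spaced by 5 and 2 holding the form spaced by 2. In the largest clusters named above, those on chromosome 8 left out, 24 of 56 windows of 200 bp centred on short gaps held a motif. Of these, 9 held C/EBP, 6 RUNX and 2 PU.1, and AP-1 and ETS-IRF matches were found as well. No share was computed for 200 bp windows elsewhere, so the count does not set these gaps apart. In the longer windows of 300 bp, any motif was found in 37.7% along the genome. A 200 bp window can reach past its gap, so a match may lie in a flanking peak. Words of the Alu repeat, a primate transposon, were counted where at least 2 of 4 searched words occurred on either strand. The words were CCTGTAATC and CACTTTGGG, with TGGAGTGCA and CTCTACTAA besides. They were found in 12.1% of cluster summits (interval 11.1% to 13.0%), 11.9% of summits in chains of 2 to 4 (interval 11.4% to 12.3%), 9.26% of single peaks, 7.71% of genome windows and 3.86% of short gaps. Reads in repeats can fit several places, and how the authors treated them is not given in the sources used here.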

How the data were processed

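H3K4me2 was profiled by ChIP-seq with paired-end reads, and 4 deposited peak lists, 1 per treatment, were read on chromosomes 1 to 22 and X. Trimmomatic, Bowtie2, Picard and MACS2 are named in the submitters' processing notes, with no parameters or roles, and the build there is hg38 (GRCh38). The peak threshold is not given in the sources used here. Peaks are 1 pooled call per treatment, so libraries could not be compared. The depth of each library was not analysed here.

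The authors deposited for each peak a score, a fold enrichment over input (a ratio at the summit), a −log10 p and a −log10 q, and the position of the summit. The score was not used. These values described and filtered peaks within a list, and folds were set side by side across lists only at the INPP5A and GLIS1 summits. Whole H3K4me2 fragments over each summit were recovered from the deposited fold and −log10 p as the number that gives both, to within 0.05 fragments, which worked for all summits of the 4 lists. Interval arithmetic and this recovery were tested on simulated data. The fragment counts were not adjusted for the depth of a list.

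Start sites and gene bodies came from GENCODE release 44 (38726 protein-coding and lncRNA genes, basic transcripts), and 0 peaks ended past a GRCh38 chromosome. Covered length was read in the span of a cluster with 5000 bp on each side. Every peak of a list was counted there, including peaks over or close to start sites. The rules, lists and members were chosen with earlier results of these data known. The classes of gap length, the windows at the middle of gaps, the genome windows and the Alu words were chosen after the data were seen.

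Clusters were named by the protein-coding start nearest to their middle. In the gene lists, a cluster within 100 kb of a listed gene's start was named by that gene instead, whichever start was nearest. The lengths of a single cluster are given there for each listed gene. The text names the 10 clusters with the most DMSO peaks, the 5 with the largest covered length, the 5 largest gains and 5 largest losses of covered length per drug list, the 5 genes nearest to the most clusters, and up to 6 examples of each gene list in listed order, with others added for contrast after their values were seen. Python 3.11.15 with numpy 2.4.6, pandas 2.3.3 and scipy 1.17.1 was used. Alternatives to the gap, the number of peaks, the distance from starts, the peak threshold, the list length, the overlap, the flank and the fold were tried.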

Additional observations from a re-analysis of the deposited data

How the results depend on the processing

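No paired analysis was possible because each treatment has 1 pooled peak list, and for the same reason no replicate was left out. Of 126 alternative values, 43 stayed within their tolerance and 83 did not; a ratio of lengths has no error, so any shift of it counts as a move. No ratio fell below 1, and the lowest was 1.09. The cause of each shift was not tested.

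The number of clusters, 748, was 407 with gaps of 2.5 kb, 1558 with a gap 2.5 times as long as the limit, 1588 with 4 peaks needed, 99 with 8 peaks needed, 257 with a −log10 q of at least 5, and 143 with peaks within 500 bp merged. The merging and the removal of chromosome 20 were added after the data were seen. Every deposited line was a distinct interval, so counting lines changed nothing. Built on ATRA, Corin and both drugs in turn, clusters numbered 286, 345 and 406 at that q, 86, 170 and 275 with 8 peaks, 1570, 1929 and 2528 with the longer gap, and 167, 180 and 292 after merging. With lists of equal length, Corin gave 595 and both drugs 501.

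Shares of cluster peaks met were 86.0%, 87.0% and 90.4% when 50% of the peak had to be covered. At the stricter q they were 92.9% with ATRA and 95.2% with both drugs, and with lists of equal length 86.6% with Corin and 88.1% with both.

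Ratios of covered length (ATRA, Corin, both) were 1.15, 1.24 and 1.41 at the stricter q, 1.14, 1.24 and 1.36 with equal list length, and 1.09, 1.17 and 1.28 without flanks. They were 1.14, 1.251 and 1.39 with gaps of 2.5 kb, 1.14, 1.28 and 1.44 with the longer gap, and 1.15, 1.29 and 1.45 with 8 peaks. They were 1.16, 1.28 and 1.45 at 5 kb from starts, 1.16, 1.32 and 1.51 after merging, and 1.15, 1.28 and 1.43 without chromosome 20.

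Longer clusters numbered 256, 372 and 484 at the lower fold tried, 6, 35 and 85 at a fold of 2, 31, 53 and 98 at the stricter q, 38, 84 and 170 without flanks, and 12, 41 and 69 after merging. Shorter clusters numbered 35, 28 and 19 at the lower fold, and 6, 3 and 1 at a fold of 2. Merging gave 2, 3 and 1. At the stricter q there were 5 with ATRA and 4 with both drugs, with lists of equal length 19 with Corin and 17 with both, and without flanks 18 with Corin.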

Other observations

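In 18 of the 748 clusters ATRA and Corin lay on opposite sides of the vehicle, 1 drug by a factor of at least 1.5 in covered length. ATRA was above Corin in 9 and below it in 9, the difference was not tested, and no share over all distal chains was computed. The cluster with the lowest ratio in the ATRA list was among them. It lies inside RGS6, a regulator of G-protein signalling, on chr14:72519010-72524370, with DPF3 as its nearest start, and had 1167 bp with DMSO, 264 bp with ATRA, 4114 bp with Corin and 3727 bp with both drugs. Its strongest summit had 30, 23, 47 and 66 fragments in the same order.

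Another of the 18 lies 131331 bp from the start of RXRA, outside the gene, on chr9:134455590-134459982. This RXRA cluster had 2600 bp with DMSO, 3274 bp with ATRA, 1571 bp with Corin and 2194 bp with both. The clusters near SAMSN1, an adaptor of blood cells, and inside PIGU, a gene of GPI anchor synthesis, also had longer coverage with ATRA than with Corin. SAMSN1 had 2677 bp with DMSO, 4112 bp with ATRA, 2625 bp with Corin and 4408 bp with both, and PIGU had 2634, 4369, 1851 and 4528 bp. The clusters near CST7, which encodes cystatin F, and inside AHNAK were the other way round. CST7 had 7477 bp with DMSO, 4927 bp with ATRA, 7809 bp with Corin and 5798 bp with both, and AHNAK had 2669, 1317, 3097 and 3116 bp.

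Several genes held 2 clusters within their body, among them PRKCB, JARID2, PECAM1 (an adhesion molecule of leukocytes and endothelium), ZBTB16 (a zinc-finger factor known as a fusion partner of RARA in leukaemia) and MERTK (a receptor for dying cells).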
